A study of Mus musculus with 6 samples.

Results

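The type I interferon antiviral effectors described here are 10 genes, Rsad2, Cmpk2, Ifit1, Ifit2, Ifit3, Isg15, Usp18, Mx2, Bst2 and Ifi44, of which 9 had a value among the 22180 genes with a probe set of their own. Ifi44 had none. The genes were chosen by name after earlier results of these arrays had shown interferon-induced genes lower in 1 of the groups, so their difference between the groups is given as a description, with no test, and supports nothing. The series measured 6 mouse colorectal tumours, each on its own Affymetrix array, which reads a gene through probes along its exons. By their labels, 3 tumours had grown in white adipose tissue, the body's store of fat, and the other 3 in non-adipose tissue. All 6 tumours shared the colorectal cancer origin. The cell line, the host's strain, sex and age, the exact sites of growth and any treatment were not stated by the sources used here.

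Type I interferons are secreted when a cell senses viral or misplaced nucleic acid. They bind the receptor pair encoded by Ifnar1 and Ifnar2, whose kinases activate the transcription factor complex ISGF3. ISGF3 binds a DNA element named ISRE, the interferon-stimulated response element, in front of target genes such as the ones described here. The proteins act on different steps of viral growth, and in tumours the same genes are widely read as a sign of interferon signalling in cancer cells, leukocytes or stroma.

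The stretches before the gene starts are shown for the genes in which a match to this element was found. The RefSeq promoter table (assembly GRCm38.p6, 250 bases before to 50 after each start) held 9 windows for 8 of the 10 genes. Usp18 and Mx2 were not in it. The core of the element was searched as GAAANNGAAA on both strands, and 5 of the 8 genes held at least 1 match (62.5%), against 3.99% of all 27025 genes with a window. The 5 stretches of 80 bases are given 5′ to 3′ in the direction of the gene, with the matches in capitals. TTTC before and after 2 other bases is the same core read on the other strand.
Isg15, chr4:156200846-156200925, minus strand: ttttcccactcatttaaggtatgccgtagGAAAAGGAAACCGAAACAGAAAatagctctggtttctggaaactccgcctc
Bst2, chr8:71537555-71537634, minus strand: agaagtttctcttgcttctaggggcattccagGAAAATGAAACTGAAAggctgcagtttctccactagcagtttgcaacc
Rsad2, chr12:26456528-26456607, minus strand: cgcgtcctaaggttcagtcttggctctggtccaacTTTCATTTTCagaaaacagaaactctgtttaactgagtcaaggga
Ifit3, chr19:34583355-34583434, plus strand: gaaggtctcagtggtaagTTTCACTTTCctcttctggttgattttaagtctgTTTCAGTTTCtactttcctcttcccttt
Ifit1, chr19:34640759-34640838, plus strand: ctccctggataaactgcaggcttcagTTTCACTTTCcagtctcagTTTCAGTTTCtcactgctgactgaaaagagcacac

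Isg15 held 3 overlapping matches, the nearest ending 57 bases before the start, and Bst2 held 2 overlapping ones. Ifit1 and Ifit3 each held 2 separate matches on the other strand, and Rsad2 held 1. A longer form, GAAANNGAAACT, lay in Bst2, Ifit1 and Ifit3, 37.5% of the genes with a window, against 0.303% of all genes. Cmpk2, Ifit2 and Ifi44 had no match to the core in their windows, which says only that these letters are not there. The element of interferon-gamma signalling, searched as TTCNNNGAA, lay in Bst2 and Ifit2, 25% against 9.55% of all genes. In Bst2 it overlapped the core of ISRE, as 0.831% of such matches did over all windows. The matches are descriptions of sequence and not measured binding sites.

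The 6 arrays were alike in level, with medians of 5.66 to 5.69 on the log2 scale, and correlated with each other across genes at 0.983 to 0.995. Some arrays stood apart in markers of other tissues. Skin epithelial markers averaged 9.42 in white adipose replicate 1 and 5.42 to 6.10 in the other arrays, and skeletal muscle markers averaged 6.96 in non-adipose replicate 3, 6.22 in replicate 1 and 5.01 to 5.30 in the remaining arrays. Of 10 colorectal epithelial markers, 5 were lower and 5 higher in white adipose tumours, and their median percentile by mean signal was 36.8. Krt8 and Krt18 lay at percentiles 96.1 and 94.9 of the genes tested, but Epcam, Krt20, Cdx2 and Vil1 between 23.3 and 38.9. Of 8 adipocyte markers, 4 were lower and 4 higher in white adipose tumours, with a mean difference of -0.043. Their median percentile was 42.2, and Adipoq and Lep lay below it at percentiles 15.6 and 22.4. Group means in non-adipose and white adipose tumours were 4.14 and 4.17 for Adipoq and 4.58 and 4.63 for Lep. A low signal had no detection call beside it.

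All 9 antiviral effectors had a lower mean in the white adipose tumours. The mean over the 9 genes was 8.96 ± 0.27 (SD, n = 3) in the non-adipose arrays and 8.29 ± 0.22 (SD, n = 3) in the white adipose arrays, a log2 difference of -0.67, or 1.59-fold. The median difference of the 9 was -0.76, beside -0.00043 over all genes. The arrays of both groups were fully apart for 7 of the 9, all but Ifit3 and Bst2, where 3.97% of all genes lay lower in white adipose tumours without overlap. At a Benjamini-Hochberg adjusted p of 0.05, limma called 0 of the 22180 genes (0%), with 473 lower and 368 higher at an unadjusted p under 0.05. Those counts were 981 and 819 without white adipose replicate 1, and 616 and 558 without non-adipose replicate 3. Since this contrast chose the genes, nothing is read from these counts. In tumour RNA, fewer cells of a kind and less RNA per cell cannot be told apart.

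**Figure D1:**
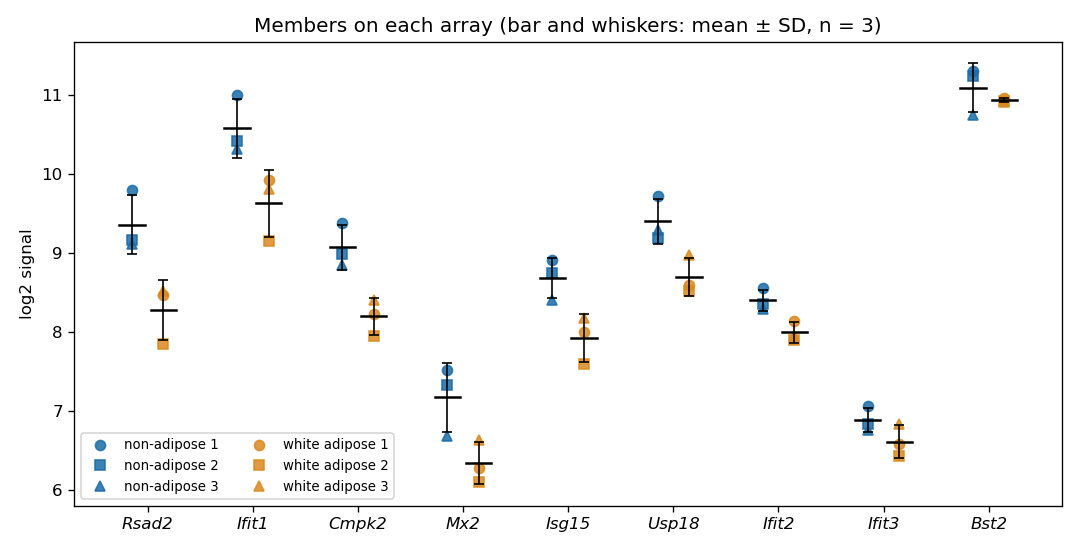
The log2 signal of each of the 9 genes (y axis) on each of the 6 arrays, in blue for the 3 non-adipose and orange for the 3 white adipose tumours, with bars and whiskers for mean ± SD. The genes are ordered by their difference: the groups are apart from Rsad2 to Ifit2 and overlap for Ifit3 and Bst2.

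Rsad2 and Cmpk2, enzymes of nucleotide metabolism that lie next to each other in the genome, were both lower without overlap. Rsad2 encodes viperin, an enzyme that turns CTP into a chain terminator of viral RNA synthesis. Its log2 signal was 9.79, 9.16 and 9.12 in non-adipose replicates 1, 2 and 3 and 8.47, 7.84 and 8.52 in white adipose replicates 1, 2 and 3. The lowest non-adipose array lay 0.60 above the highest white adipose one, and white adipose replicate 2 was lowest of all. The log2 difference was -1.08 (SE 0.25), or 2.12-fold, the largest of the 9. Cmpk2, a mitochondrial kinase of nucleoside monophosphates, measured 9.39, 8.98 and 8.84 in non-adipose and 8.23, 7.95 and 8.41 in white adipose tumours. The groups again did not overlap, with a gap of 0.43 between them. Its log2 difference was -0.87 (SE 0.18), 3.39 times its pooled SD within groups, the highest such multiple of the 9 genes.

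The Ifit genes encode proteins with tetratricopeptide repeats that bind viral RNA or the translation machinery, and they lie in 1 cluster. Ifit1, which binds RNA lacking the host's cap methylation, measured 11.01, 10.42 and 10.31 in non-adipose and 9.93, 9.15 and 9.81 in white adipose tumours. Non-adipose replicate 1 was high and white adipose replicate 2 low, and the groups were 0.38 apart. Ifit1 differed by -0.95 (SE 0.27) on the log2 scale.

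Ifit2 measured 8.55, 8.36 and 8.29 in non-adipose and 8.14, 7.89 and 7.94 in white adipose tumours. It moved over a narrower range than Ifit1, with a gap of 0.15 between the groups and a log2 difference of -0.41 (SE 0.10). Ifit3, which forms complexes with the other Ifit proteins, measured 7.06, 6.84 and 6.76 in non-adipose and 6.58, 6.42 and 6.83 in white adipose tumours. White adipose replicate 3 lay within the non-adipose range, and the log2 difference was -0.28 (SE 0.13). Ifit3 has a close copy, Ifit3b, whose transcripts may bind the same probes, so the values of both are less certain. Ifit3b, named here as that copy after its values were seen, differed by -0.95 (SE 0.30), with 6.11, 5.78 and 5.67 in non-adipose and 5.58, 4.46 and 4.67 in white adipose tumours. The other copies of the cluster, Ifit1bl1 and Ifit1bl2, differed by -0.092 (SE 0.17) and -0.38 (SE 0.21).

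Isg15 and Usp18 belong to the ISG15 system. Isg15 encodes a ubiquitin-like protein that is attached to other proteins or secreted. Its log2 signal was 8.91, 8.75 and 8.41 in non-adipose and 8.004, 7.59 and 8.18 in white adipose tumours, 0.23 apart at the nearest arrays. The log2 difference was -0.76 (SE 0.19), or 1.70-fold. Usp18 removes ISG15 from proteins and also damps signalling at the interferon receptor. It measured 9.72, 9.19 and 9.29 in non-adipose and 8.60, 8.52 and 8.97 in white adipose tumours. The groups did not overlap, with white adipose replicate 3 nearest to the non-adipose arrays, and the log2 difference was -0.71 (SE 0.18).

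The enzymes that attach ISG15 were lower in mean as well, although the test called none. Of 4 genes listed for this step (Uba7, Ube2l6, Herc6 and Trim25), 4 had lower means, 3 of them at an unadjusted p under 0.05 by limma. Of all genes, 50.3% had lower means and 2.13% were lower at that threshold. This list was chosen with earlier results of these arrays known, so nothing is read from its counts. Of the 4 genes, 0 passed an adjusted p of 0.05 by limma. Herc6, the main ligase of the step in mice, differed by -0.57 (SE 0.15, limma adjusted p = 0.936) and Trim25, also a ligase, by -0.43 (SE 0.13, limma adjusted p = 0.936). The median of the 4 was -0.36.

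Mx2 and Bst2 stood at opposite ends of the remaining effectors. Mx2 belongs to the dynamin-like Mx family of antiviral GTPases, and the mouse RefSeq table of GRCm38.p6 lists it as a transcribed pseudogene. It measured 7.51, 7.33 and 6.68 in non-adipose and 6.28, 6.10 and 6.63 in white adipose tumours. Non-adipose replicate 3 lay only 0.05 above white adipose replicate 3, so the groups were barely apart, and the log2 difference was -0.84 (SE 0.24). Mx1, its relative with a probe set of its own, measured 6.71, 6.22 and 6.09 in non-adipose and 5.68, 5.53 and 6.10 in white adipose tumours. Its groups overlapped by white adipose replicate 3, and it differed by -0.57 (SE 0.21, limma adjusted p = 0.936).

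Bst2 encodes tetherin, which holds budding virions at the cell surface and in mice also marks plasmacytoid dendritic cells, strong producers of type I interferon. It measured 11.30, 11.24 and 10.75 in non-adipose and 10.96, 10.92 and 10.92 in white adipose tumours. Non-adipose replicate 3 lay below all 3 white adipose arrays, and the log2 difference was -0.16 (SE 0.15), smaller than the SD of 0.30 among the non-adipose arrays. Without that array it was -0.34, and without non-adipose replicate 1 or 2 it was -0.060 or -0.088. The 9 measured plasmacytoid dendritic cell markers had a mean of 5.68 ± 0.055 (SD, n = 3) in the non-adipose arrays and of 5.83 ± 0.14 (SD, n = 3) in the white adipose arrays, with 4 lower and 5 higher. Their differences ran from -0.27 to 1.12. Among the 5 higher ones, Siglech differed by 0.17 (SE 0.20) and Ccr9 by 0.18 (SE 0.11), both named after their values were seen. The 4 lower ones reached -0.27. The marker with the largest difference was Ly6d at 1.12 (SE 0.79), which measured 9.30 in white adipose replicate 1, the array high in skin markers, and 5.85 to 6.83 in the other arrays. The mean difference of the 9 markers was 0.15, and 0.074 without that array.

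Within each group, most of the genes had the same array at an end of their range, apart from the highest white adipose array. Among the non-adipose tumours replicate 1 was highest for 9 of the 9 genes, where it was highest for 33.6% of all genes. Replicate 3 was lowest for 8 of them, the exception being Usp18, against 33.2% of all genes. Among the white adipose tumours replicate 2 was lowest for 8, the exception being Bst2, against 28.6% of all genes. The highest white adipose array was split, being replicate 3 for 6 of the 9 genes (26.7% of all genes) and replicate 1 for Ifit1, Ifit2 and Bst2 (39.2% of all genes). The mean over the 9 genes was 9.25, 8.92 and 8.72 in non-adipose replicates 1, 2 and 3 and 8.35, 8.04 and 8.47 in white adipose replicates 1, 2 and 3. Tumours of a group thus spanned 0.53 and 0.42 on the mean, while the nearest tumours of the groups were 0.25 apart.

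**Figure D2:**
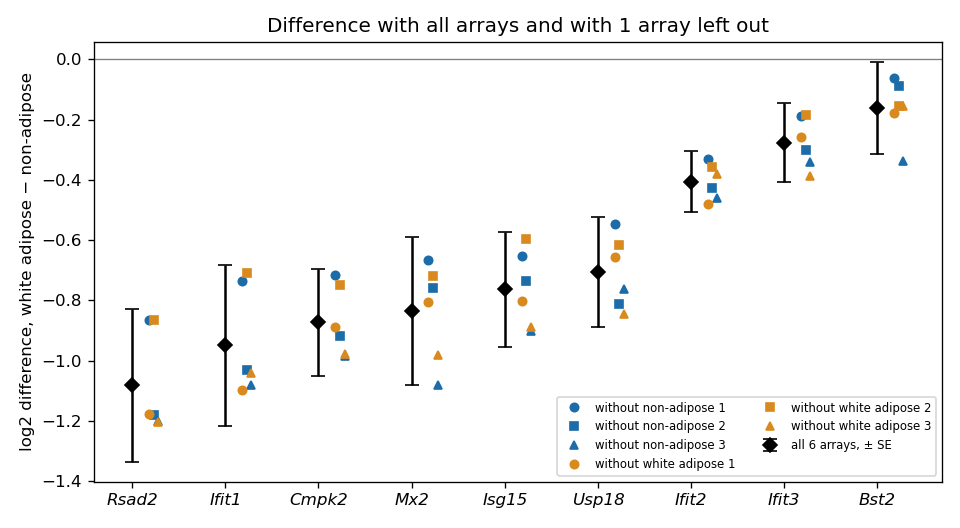
The log2 difference (y axis, white adipose minus non-adipose) of each of the 9 genes with all 6 arrays (black diamond, ± SE) and with 1 array left out (coloured points). All points lie below 0, and for all 9 genes the difference was nearest to 0 once replicate 1 of the non-adipose or replicate 2 of the white adipose group was left out.

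Leaving out non-adipose replicate 1 took the mean difference of the 9 genes from -0.67 to -0.53, and leaving out white adipose replicate 2 took it to -0.55. Without white adipose replicate 1, the array high in skin markers, it was -0.70, and without non-adipose replicate 3, the array high in muscle markers, -0.79. Rsad2 ran from -1.20 to -0.86 and Ifit1 from -1.10 to -0.71 over the 6 arrays left out in turn. Ifit3 ran from -0.39 to -0.18, its smallest value being without white adipose replicate 2.

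Marker lists of leukocytes were set beside these values. The 6 markers shared by all leukocytes had a mean of 8.45 ± 0.26 (SD, n = 3) in the non-adipose arrays and of 8.44 ± 0.17 (SD, n = 3) in the white adipose arrays, with 3 lower and 3 higher. The 11 macrophage and monocyte markers averaged 9.08 ± 0.089 (SD, n = 3) and 9.003 ± 0.14 (SD, n = 3), and the 10 T and NK cell markers 5.83 ± 0.48 (SD, n = 3) and 5.998 ± 0.20 (SD, n = 3). Of 8 neutrophil markers, 6 were lower in white adipose tumours and 2 higher, and they averaged 5.77 in non-adipose replicate 1, 4.85 in replicate 2, 5.59 in replicate 3 and 5.05 to 5.20 in the white adipose arrays. Of 7 skeletal muscle markers, 7 were lower in white adipose tumours, with a median of -0.70. Of 6 measured skin epithelial markers, 6 were higher, with a mean difference of 1.05, which was -0.27 without white adipose replicate 1. Fibroblast markers averaged 9.79 and 9.96 and endothelial markers 6.91 and 6.92. The part of these cells in the difference of the antiviral genes was not tested.

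The rest of the pathway was described from lists of 132 other genes, of which 120 had a value. In these lists 85 genes were lower in mean and 35 higher in the white adipose group, with a median of -0.12, and 0 passed an adjusted p of 0.05 by limma. At an unadjusted p under 0.05, 31 were lower and 1 was higher, and of all genes 2.13% were lower. The lists were chosen with earlier results of these arrays known, so nothing is read from these counts. The genes lower in mean were mostly ones that interferon induces, whereas the median of the ligands and that of the receptors lay above 0.

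Of 18 type I interferon genes, 16 had a value, 6 lower and 10 higher, with a median of 0.089 and a median percentile of 17.2 by mean signal. Ifnb1, interferon beta, was dim at percentile 13.0. It measured 4.48, 4.18 and 3.77 in non-adipose and 3.99, 3.26 and 3.99 in white adipose tumours, which overlapped, and it differed by -0.40 (SE 0.26, limma adjusted p = 0.936). Ifnab differed by 0.58 (SE 0.22) and Ifna13 by 0.25 (SE 0.10), at percentiles 15.2 and 2.66, where their values may be background. Ifng, the type II interferon, differed by 0.11 (SE 0.15) and the type III interferon Ifnl3 by 0.032 (SE 0.10), and both changed sign when 1 array was left out.

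Both type I receptor genes differed between the groups by less than their standard errors. Ifnar1 measured 9.83, 9.92 and 9.86 in non-adipose and 9.80, 9.96 and 9.92 in white adipose tumours, a difference of 0.024 (SE 0.068). Ifnar2 measured 9.54, 9.53 and 9.49 against 9.50, 9.57 and 9.62, a difference of 0.043 (SE 0.060). The groups overlapped for both genes. The receptor kinase Tyk2 differed by 0.16 (SE 0.074) and the interferon-gamma receptor chain Ifngr1 by -0.12 (SE 0.058). None of the 8 receptors and kinases was at an unadjusted p under 0.05, with a median of 0.032.

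Among the factors downstream, Stat2 measured 9.22, 8.77 and 8.94 in non-adipose and 8.65, 8.496 and 8.73 in white adipose tumours. The groups were just apart, and Stat2 differed by -0.35 (SE 0.13, limma adjusted p = 0.936). Irf9, the DNA-binding part of ISGF3, differed by -0.24 (SE 0.11). Irf7, which drives interferon alpha genes and is itself induced, measured 8.62, 8.14 and 8.45 against 8.09, 7.80 and 8.06 and differed by -0.42 (SE 0.15, limma adjusted p = 0.936). The 7 measured factors had 4 lower and 3 higher means. Of 15 sensors and adaptors, 10 were lower and 5 higher with a median of -0.078. The RNA sensors Ddx58 at -0.55 (SE 0.14) and Dhx58 at -0.42 (SE 0.13) had the smallest unadjusted p of that list, and another RNA sensor, Ifih1, had the largest difference at -0.59 (SE 0.21).

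**Figure D3:**
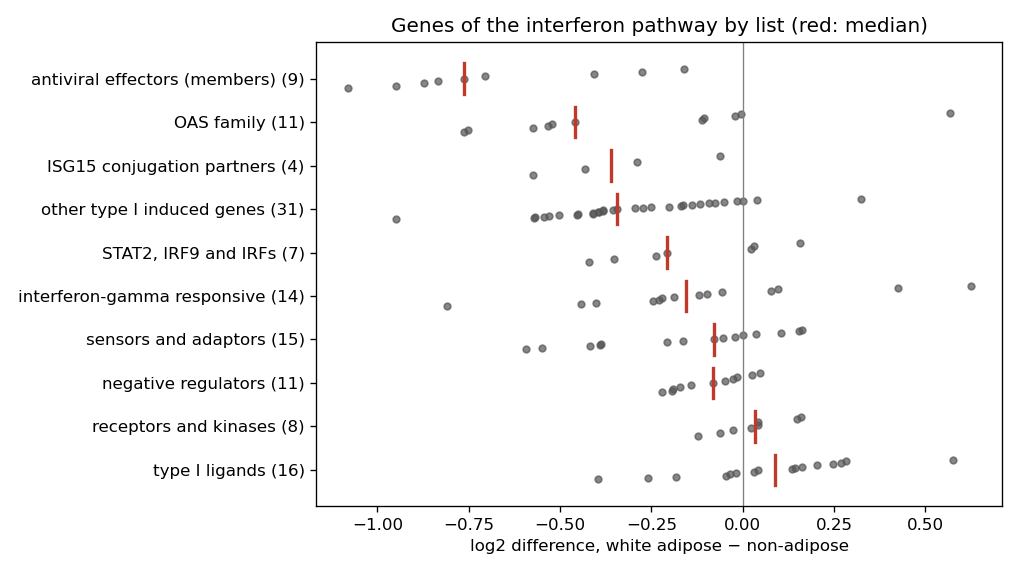
The log2 difference (x axis, white adipose minus non-adipose) of each measured gene in 10 lists of the pathway (number of genes in brackets), with the median of each list in red. The median is -0.76 for the antiviral effectors, -0.46 for the OAS family and 0.089 for the type I ligands.

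The medians of the lists of other induced genes, and of negative regulators and nucleases, lay between those of the antiviral effectors and the receptors. The OAS family, which makes the oligoadenylates that activate RNase L, had 10 of 11 genes lower with a median of -0.46, and Oasl2 differed by -0.57 (SE 0.085) and Oas2 by -0.75 (SE 0.19). Of 31 further type I interferon-induced genes, 28 were lower and 3 higher, with a median of -0.35. At an unadjusted p under 0.05 by limma, 15 of them were lower, beside 2.13% of all genes. Because this list too was drawn up with earlier results of these arrays known, nothing is read from its counts. Helz2 differed by -0.55 (SE 0.091) and Rnf213, a large ubiquitin ligase, by -0.57 (SE 0.13). Of 14 genes that respond mainly to interferon-gamma, 10 were lower and 4 higher, with a median of -0.16. Within that list Cxcl10, a T cell chemokine that type I interferon also induces, differed by -0.81 (SE 0.22) and the GTPase gene Irgm1 by -0.23 (SE 0.13). Of 11 negative regulators and nucleases, 9 were lower, with a median of -0.083, among them the phosphatase gene Ptpn1 at -0.14 (SE 0.059) and the RNA editing enzyme gene Adar at -0.17 (SE 0.081). Every gene in these 4 lists had a limma adjusted p above 0.05. The difference between the antiviral effectors and these lists was not tested.

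The genes most like the antiviral effectors were found by the root-mean-square difference, over the 6 arrays, between a gene's log2 values and the mean of the 9 genes, both centred on their own mean. A flat gene would score 0.391, and the median of all other genes was 0.408. The 8 nearest genes were Rtp4 at 0.107, Mx1 at 0.113, Ddx58 at 0.122, Vmn1r180 at 0.130, Oasl2 at 0.138, Cdkn1a at 0.140, Rnf213 at 0.141 and Gm20559 at 0.149. Of these, 5 are on the pathway lists, which hold 120 of the 22180 genes. The pattern holds the same contrast that chose the 9 genes, so nothing is read from this count. Rtp4 measured 10.21, 10.02 and 9.88 in non-adipose and 9.63, 9.30 and 9.59 in white adipose tumours. Vmn1r180, a vomeronasal receptor gene, had a mean signal at percentile 1.19 of the genes tested. Cdkn1a, the cell cycle inhibitor gene, measured 9.38, 9.23 and 9.08 in non-adipose and 8.96, 8.37 and 8.78 in white adipose tumours. Among the antiviral effectors themselves Isg15 lay nearest to their mean at 0.0831 and Bst2 farthest at 0.30.

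**Figure D4:**
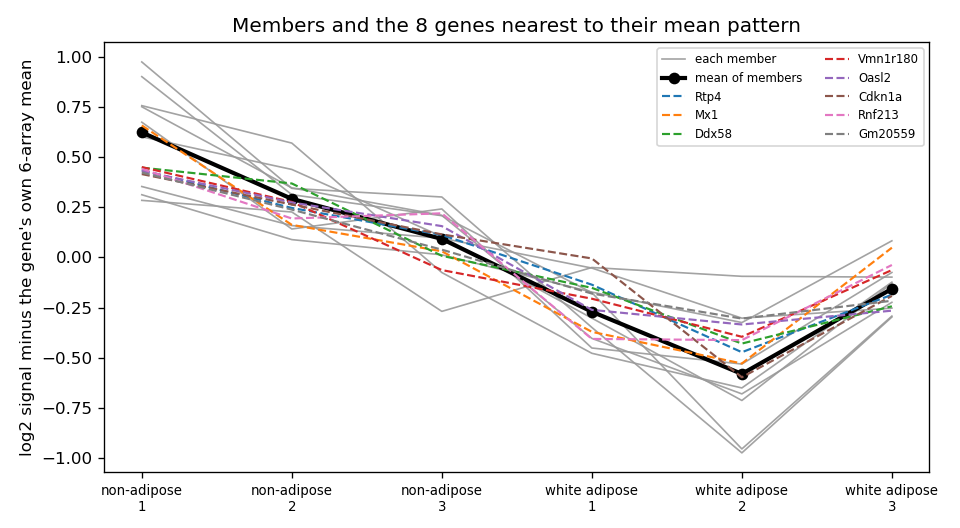
The log2 signal minus each gene's own mean over 6 arrays (y axis) for each array (x axis), for the 9 antiviral effectors (grey), their mean (black) and the 8 nearest other genes (dashed). Lines only trace a gene from array to array. The mean runs from 8.04 in white adipose replicate 2 to 9.25 in non-adipose replicate 1 before centring.

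The genes that flank the antiviral effectors in the genome were split between both directions. The nearest measured protein-coding genes on either side that are on no pathway list were 12 in all, 5 lower and 7 higher in mean, with a median difference of 0.058 and a range of -0.36 to 0.40. Rnf144a and Sox11, which flank Rsad2 and Cmpk2, differed by 0.067 (SE 0.099) and -0.002 (SE 0.064). Lipa and Slc16a12, on the sides of the Ifit cluster, differed by -0.055 (SE 0.088) and 0.29 (SE 0.20). Agrn, beside Isg15, differed by -0.36 (SE 0.11), and Tuba8, beside Usp18, by 0.30 (SE 0.095). On their other sides, Perm1 differed by -0.167 (SE 0.106) and Slc6a13 by 0.403 (SE 0.257). Fam3b and Tmprss2, which flank Mx2, differed by 0.048 (SE 0.0746) and 0.095 (SE 0.165). Plvap and Mvb12a, on the sides of Bst2, differed by -0.024 (SE 0.119) and 0.128 (SE 0.0781). These neighbours were named by position, and 0 of them passed an adjusted p of 0.05 by limma. At an unadjusted p under 0.05 there were 2 of the 12, beside 841 of all 22180 genes.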

How the data were processed

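The deposited table holds log2 signals of 41345 probe sets on 6 arrays. Per the submitters' processing notes, the tool was Affymetrix Expression Console; no source used here gives its version, background correction or normalization. Probe sets with exactly 1 gene symbol in the platform annotation (23521) were kept, and for each gene the probe set with the highest mean. The authors' values were used as deposited in limma 3.58.1 (R 4.3.3; lmFit and eBayes over all 22180 genes, no filter, no replicate block), with Benjamini-Hochberg adjustment of the p-values. Standard errors are moderated. The typical SE over genes was 0.0972. The fit was tested on simulated data.

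The genes, lists, alternatives and rule for naming were chosen with earlier results of these data known. The rule named the 9 genes, 2 genes with the smallest p of each pathway list, Ifnb1, Ifnar1, Ifnar2, Stat2, Irf9 and Irf7, and the 8 nearest in pattern. Others were named after their values were seen. The labels call the samples biological replicates, and the number of arrays limits precision.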

Additional observations from a re-analysis of the deposited data

How the results depend on the processing

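Over 13 alternatives (2 scalings, a filter on dim genes, array weights, another variance model, averaged probe sets, a replicate block and each array left out), none of the 9 antiviral effectors changed sign in any of 117 values, and each stayed within 1 SD of its reported difference. Their mean difference ran from -0.794 to -0.529 with 1 array left out. limma called 0 genes at an adjusted p of 0.05 under all 13. The count at an unadjusted p under 0.05, 841 as reported, was 1621 with array weights and 640 to 1800 with 1 array left out, highest without white adipose replicate 1; the cause was not tested. Of 29 other named genes, 3 changed sign, all near 0 and only when an array was left out: Ifnar1 ran from -0.007 to 0.069, Ifng from -0.018 to 0.219 and Ifnl3 from -0.038 to 0.109. The marker lists' mean differences were recomputed with each array left out, a choice made after seeing the data. Of 12 lists, 7 changed sign: skin epithelium ran from -0.267 (without white adipose replicate 1) to 1.733, T and NK cells from -0.024 to 0.44, B and plasma cells from -0.218 to 0.168, macrophages and monocytes from -0.121 to 0.005, all leukocytes from -0.148 to 0.101, endothelium from -0.069 to 0.076 and adipocytes from -0.204 to 0.079. Neutrophil markers ran from -0.527 to -0.069, muscle from -1.456 to -0.516 and plasmacytoid dendritic cells from 0.074 to 0.217. Arrays with the same replicate number shared deviations at r = 0.142, 0.064 and 0.0641 across genes. The labels do not say whether the numbers pair the tumours, and such values from 3 arrays per group cannot decide it. The replicate block gave 1081 genes at an unadjusted p under 0.05 by limma and left the mean difference at -0.673. Without detection calls, values of dim genes such as the interferon genes may be background.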

Other observations

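The share of genes with the ISRE core GAAANNGAAA in the RefSeq windows differed from list to list and is given here beside the median group difference. Of 11 genes that respond mainly to interferon-gamma and have a window, 10 held it (90.9%), with a median log2 difference of -0.16 for the list. Of 17 type I interferon genes with a window, 11 held it (64.7%), with a median of 0.089. The 4 ISG15 attachment genes held it in 0 of 4 windows, with a median of -0.36. The OAS family held it in 4 of 8 (50%), with a median of -0.46, and the further type I interferon-induced genes in 9 of 25 (36%), with a median of -0.35. The antiviral effectors held it in 5 of 8 (62.5%), with a median of -0.76. Sensors and adaptors held it in 3 of 11 (27.3%), with a median of -0.078. The factors downstream held it in 2 of 8 (25%), with a median of -0.21. For the negative regulators and nucleases it was 1 of 10 (10%), with a median of -0.083. Receptors and kinases had it in 0 of 7 and type II and III interferons in 0 of 3, both with a median of 0.032. Medians are over all measured genes of a list, with or without a window.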
